A study of Sus scrofa domesticus with 4 samples.

Results

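The insulin-like growth factor (IGF) system was examined in porcine endometrium, the lining of the uterus, after culture with orexin B. Probes were chosen by name alone: every non-control probe whose accession in the scanner files maps through RefSeq to IGF1, IGF2, IGF1R, IGF2R, IGFBP1, IGFBP2, IGFBP3, IGFBP5 or IGFBP7. Of these 9 genes, 8 had a probe, out of 3029 genes named on the array, and they held 19 of its 43603 probes. IGFBP1 had none by this rule and was dropped.

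Each of the 4 two-colour arrays compares endometrium treated with 10 nM orexin B for 24 h with endometrium kept for the same time with no treatment. Orexin B is a hypothalamic peptide, also called hypocretin 2. Both groups are explants of about 100 mg from the middle of the uterine horns of Large White x Polish Landrace gilts, 7 to 8 months old and on days 15 to 16 of gestation, and all explants first stood for 2 h without the peptide. The labels speak of 4 gilts but do not tie a gilt to an array, so the p-values measure the spread between arrays and may in part be technical. The dye labels put treated RNA in Cy5 for arrays 1 and 3 but in Cy3 for arrays 2 and 4. A labelling protocol common to every sample could instead mean Cy5 for treated RNA throughout. The authors' value table is reversed against Cy5 over Cy3 on arrays 2 and 4, as the dye labels are. An explant holds all cell types of the tissue, so fewer cells of a type and less RNA per cell cannot be told apart in any value below.

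IGF1 and IGF2 are small secreted hormones related to insulin, and both act through IGF1R, a receptor tyrosine kinase that drives growth and survival through the PI3K and MAP kinase pathways. IGF2R, the mannose 6-phosphate receptor, takes up IGF2 for breakdown and also carries lysosomal enzymes. The binding proteins hold IGFs outside the cell, where they prolong their life, keep them from the receptor or deliver them to it, and proteases that cut the binding proteins set the ligands free. In the pregnant uterus the system is known as a maternal growth signal to the conceptus and as a regulator of the lining itself. In the RefSeq gene order of the pig, IGFBP2 and IGFBP5 are neighbours with 0 genes between them, as are IGFBP1 and IGFBP3.

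The share of spots called well above background in Cy5 was 82.4% to 86.7% for arrays 1, 3 and 4 but 46.8% for array 2, whose header gives another slide barcode and another scan, although its deposited name carries the slide of the other arrays. In Cy3 the share was 27.8% to 36.2%. The 153 negative control spots had a median intensity of 63 to 94 in Cy5 and 183 to 383 in Cy3, so dim genes were seen in Cy5 more often than in Cy3. Of cell type markers with a probe, 5 of 5 epithelial and 4 of 5 stromal ones passed the filter for testing given next. So did 5 of 5 endothelial, 5 of 5 macrophage and myeloid and 4 of 4 smooth muscle and pericyte ones. For T and NK cells it was 3 of 8, and for trophoblast 3 of 7. Of the B cell and plasma cell markers 0 of 3 passed, although MS4A1 and CD79A were above background in up to 3 Cy5 channels. Testing required a probe to exceed background clearly in at least 1 condition on every one of the 4 arrays. This left 12 IGF probes of 5 genes, or 63.2% of the 19, against 54.3% of all probes with a gene name and 31.6% of all probes on the array.

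With 24 h of orexin B, 0 of the 12 tested IGF probes passed limma at an adjusted p of 0.05, where 0% of all 13783 tested probes passed. At an unadjusted p of 0.05 the count was again 0 of 12, against 3.59% of all tested probes. That count was 2 of 12 with median centring and 3 of 12 with all arrays read as treated in Cy5, where 1080 and 2145 of all 13783 tested probes had such a p, and it was 1 of 12 without array 3. The reading as treated in Cy5 on all arrays had no dye term, because treatment and dye cannot be told apart in it. Fitted log2 ratios of treated over untreated ran from -0.25 for a probe of IGF2 to 0.56 for IGFBP5, with a median of -0.088, against a median of 0.0156 over all tested probes. Of the 12 probes, 5 had a higher ratio (background 53.1%) and 7 a lower one (background 46.9%). Among the 1637 tested genes with a name, each by its brightest probe, 43.9% were higher. The sign was the same on 4 of 4 arrays for 0 of 12 IGF probes (background 7.30%). With median centring in place of loess, 12 of 12 IGF probes and 89% of all tested probes were higher. That setting raised the median of all tested probes to 0.28, and the IGF median of 0.20 stayed below it, so signs below are relative to the loess centre. The 95% interval lay within 1 log2 unit of 0 for 11 of 12 probes, against 91.9% of all tested probes, and IGFBP5 was the exception. The probes of a gene share their target, so the 12 values are not 12 independent measurements.

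**Figure D1:**
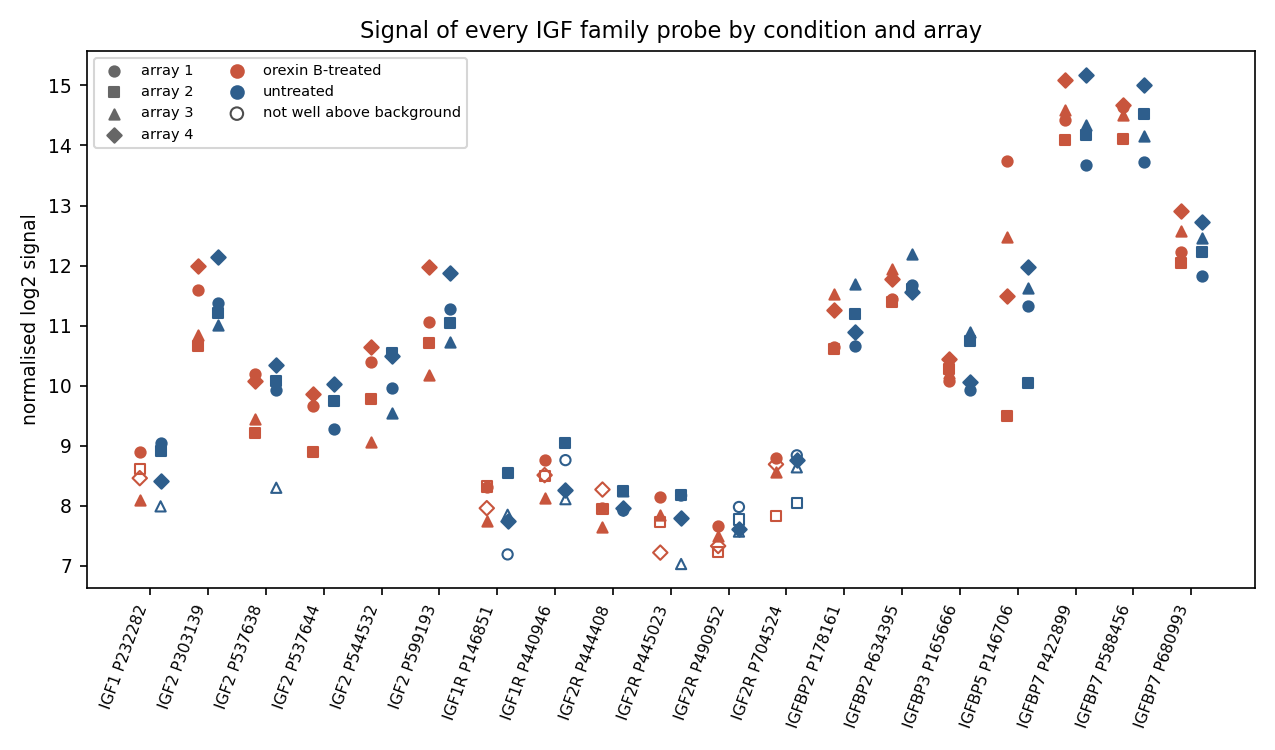
Normalised log2 signal of all 19 IGF probes (vertical axis), with orexin B-treated RNA on the left and untreated RNA on the right of each probe, and a marker shape for each array. Open markers were not well above background in that channel: IGF1, both receptors and 1 probe of IGF2 have them, whereas IGFBP2, IGFBP3, IGFBP5 and IGFBP7 have none.

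Ligands. IGF2 (NCBI Gene 396916) was the measured ligand, with 5 tested probes. Its probe A_72_P303139 had a normalised log2 signal of 11.59, 10.66, 10.85 and 11.99 in treated RNA of arrays 1 to 4, against 11.37, 11.21, 11.01 and 12.15 in untreated RNA. The groups overlapped, and array 4 was highest in both. On the raw scale the untreated signal of this probe in Cy5 was 38.9 and 65.4 times the negative controls on arrays 2 and 4. In Cy3 it was 4.18 and 3.43 times the negative controls on arrays 1 and 3. The log2 ratio of treated over untreated was 0.21, -0.55, -0.16 and -0.16 on arrays 1 to 4, and the fit gave -0.16 ± 0.18 (moderated SE, n = 4; 95% interval -0.59 to 0.27; limma adjusted p = 0.999). That interval runs from 1.51 times lower to 1.20 times higher in treated explants.

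The other 4 probes of IGF2 stood at fitted log2 ratios of -0.25 (A_72_P599193), -0.17 (A_72_P544532), -0.07 (A_72_P537644) and 0.07 (A_72_P537638), each with an adjusted p = 0.999. All 5 agreed in sign on array 2 only, where they ran from -0.86 to -0.33. On array 3 they were farthest apart, from -0.55 to 1.14. The value of 1.14 belongs to A_72_P537638, whose untreated channel on array 3 was not well above background, with a signal 1.15 times the negative controls. A_72_P537644 lacked a value on array 3, where its spot was an outlier, so its ratio rests on 3 arrays. The mean of the 5 probes gave -0.13 ± 0.19 in a test per gene (moderated SE, n = 4; limma adjusted p = 0.998 over 1637 genes).

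IGF1 (NCBI Gene 397491) was near the detection limit. Its single probe was well above background in 4 Cy5 channels and in 1 Cy3 channel, which is 2 arrays of treated and 3 of untreated RNA. It therefore was not tested. Its signal in Cy5 was 8.31 and 4.31 times the negative controls in treated RNA of arrays 1 and 3, against 4.37 and 4.37 times in untreated RNA of arrays 2 and 4. The log2 ratio of treated over untreated was -0.15, -0.31, 0.10 and 0.05 on arrays 1 to 4, of which array 1 alone had both channels above background.

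Receptors. None of the 6 receptor probes was above background in a Cy3 channel, so no array measured IGF1R or IGF2R in both conditions and no ratio was tested. Both probes of IGF1R (NCBI Gene 397350) were above background in 4 of 4 Cy5 channels, and so in treated RNA on 2 arrays and in untreated RNA on 2 others. Probe A_72_P440946 was 7.41 and 4.48 times the negative controls in treated RNA of arrays 1 and 3, against 4.79 and 3.96 times in untreated RNA of arrays 2 and 4. The groups overlapped, and the treated value of array 1 was the highest. The other probe, A_72_P146851, gave 4.24 and 2.91 times in treated RNA, against 3.00 and 2.24 times in untreated RNA. These sets come from different arrays, array 2 with its own scan among them. Within arrays, the log2 ratio of treated over untreated was 0.01, -0.55, 0.02 and 0.25 on arrays 1 to 4 for A_72_P440946. For A_72_P146851 it was 1.13, -0.23, -0.11 and 0.20. Each of these ratios has a Cy3 channel not above background.

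For IGF2R (NCBI Gene 397214), 2 of 4 probes were above background in 4 Cy5 channels and 2 in 3, with array 2 the missing one. A_72_P704524 was 7.57 and 7.11 times the negative controls in treated RNA of arrays 1 and 3, against 1.85 and 5.95 times in untreated RNA of arrays 2 and 4. The untreated value of 1.85 was not above background. As for IGF1R, these sets come from different arrays, array 2 with its own scan among them. Within arrays, the log2 ratio of treated over untreated of A_72_P704524 was -0.04, -0.22, -0.08 and -0.08 on arrays 1 to 4. The Cy3 channel was not above background in any of them. The other 3 probes lay between 1.90 and 4.02 times in treated RNA in Cy5, against 1.62 to 2.91 times in untreated RNA in Cy5. Their log2 ratios on arrays 1 to 4 were 0.04, -0.30, -0.60 and 0.30 for A_72_P444408. They were -0.04, -0.45, 0.82 and -0.58 for A_72_P445023 and -0.33, -0.54, -0.08 and -0.30 for A_72_P490952. A receptor transcript was thus detected in Cy5 in both conditions, at a level where each ratio rests on a Cy3 channel not above background and was not tested.

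Binding proteins with a lower fitted ratio. IGFBP2 (NCBI Gene 397064), a carrier of both IGFs, had a normalised log2 signal of 11.45, 11.39, 11.94 and 11.77 in treated RNA of arrays 1 to 4 and 11.68, 11.61, 12.20 and 11.56 in untreated RNA (probe A_72_P634395). The log2 ratio was -0.23, -0.23, -0.26 and 0.21, so that array 4 alone was above 0. The fit gave -0.13 ± 0.18 (95% interval -0.55 to 0.29, limma adjusted p = 0.999), and the second probe, A_72_P178161, gave -0.11 ± 0.21. The ratio of the first probe varied little: its SD over the arrays was 0.22, and 12% of tested probes had a smaller one.

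IGFBP3 (NCBI Gene 448812) carries most IGF in serum together with the acid-labile subunit. Its probe A_72_P165666 had a log2 signal of 10.08, 10.27, 10.21 and 10.45 in treated RNA, against 9.93, 10.75, 10.90 and 10.06 in untreated RNA of arrays 1 to 4. Treated values lay within the range of the untreated ones. The log2 ratio was 0.14, -0.48, -0.69 and 0.39, which does not follow the dye orientation, and the fit gave -0.16 ± 0.23 (95% interval -0.71 to 0.39, limma adjusted p = 0.999).

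Binding proteins with a higher fitted ratio. IGFBP5 (NCBI Gene 397182), which binds to matrix and cell surfaces, had the widest spread of the family. Its only probe, A_72_P146706, had a log2 signal of 13.74, 9.50, 12.47 and 11.49 in treated RNA of arrays 1 to 4, against 11.33, 10.04, 11.62 and 11.98 in untreated RNA. Treated RNA was thus brighter on arrays 1 and 3, where it carried Cy5, and dimmer on arrays 2 and 4, where it carried Cy3. In numbers, the log2 ratio of treated over untreated was 2.41, -0.54, 0.86 and -0.49, with an SD of 1.39, and 98.8% of tested probes had a smaller SD. The fit gave 0.56 ± 0.27 (1.48-fold; 95% interval -0.07 to 1.19; limma unadjusted p = 0.0725, adjusted p = 0.999) beside a dye term of 1.07 (unadjusted p = 0.00483, adjusted p = 0.290). Without array 1 the ratio of IGFBP5 was 0.17 and without array 3 it was 0.95. Read as treated in Cy5 on all arrays, with no dye term in the fit, the ratio was 1.07 (limma adjusted p = 0.260). Treatment and dye cannot be told apart under that reading, so this value is the same quantity as the dye term above. The test did not call IGFBP5 under either reading. In the test per gene the unadjusted limma p was 0.0275 for the same ratio of 0.56, and the adjusted p = 0.564 did not pass.

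IGFBP7 (NCBI Gene 100302573) is a relative with low affinity for IGFs, found in vessels and stroma. It was well above background in every channel with all 3 probes. Probe A_72_P588456 had a log2 signal of 14.64, 14.11, 14.51 and 14.68 in treated RNA and 13.72, 14.53, 14.16 and 15.01 in untreated RNA. Treated RNA was brighter on arrays 1 and 3 and dimmer on arrays 2 and 4, with log2 ratios of 0.92, -0.42, 0.35 and -0.33. The fit gave 0.13 ± 0.18 (95% interval -0.30 to 0.57, limma adjusted p = 0.999) and a dye term of 0.51 (unadjusted p = 0.0285). The other probes stood at 0.21 ± 0.18 (A_72_P422899) and 0.14 ± 0.18 (A_72_P680993), with dye terms of 0.29 and 0.13. Under median centring the 3 probes stood at 0.58 (A_72_P422899), 0.50 (A_72_P588456) and 0.46 (A_72_P680993), each with an adjusted p = 0.521 by limma. For A_72_P680993 the ratios were 0.41, -0.18, 0.12 and 0.19, so array 2 alone was below 0. In untreated RNA measured in Cy5, A_72_P588456 was 585 and 515 times the negative controls on arrays 2 and 4. Measured in Cy3, it was 16.3 and 18.4 times the negative controls on arrays 1 and 3.

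**Figure D2:**
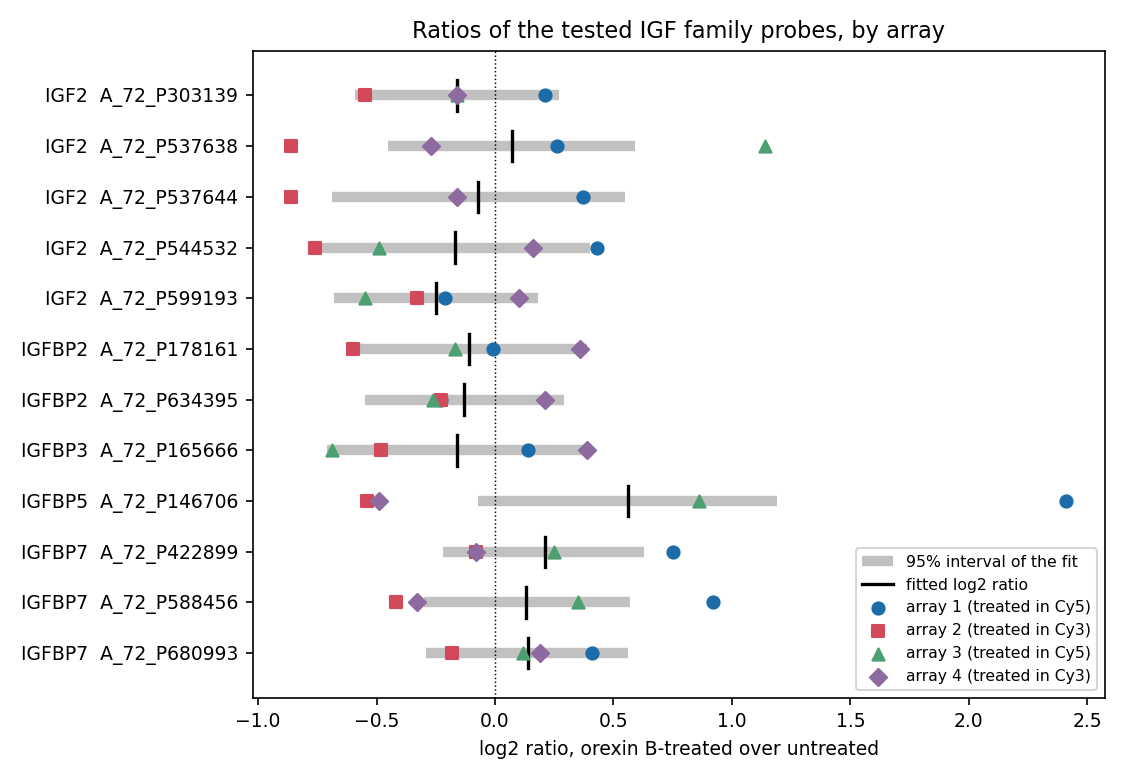
Log2 ratio of orexin B-treated over untreated RNA (horizontal axis) for the 12 tested IGF probes, with a marker for each array, a black bar for the fitted ratio and a grey band for its 95% interval. Every band includes 0, the squares of array 2 are left of 0 for all 12 probes, and the array 1 value of IGFBP5 stands at 2.41.

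The dye terms of the 12 tested IGF probes were set beside those of all tested probes. The dye term was larger in size than the treatment term for 6 of 12 probes (background 64.0%), and it had an unadjusted p under 0.05 for 3 of 12 (background 14.1%), namely IGFBP5, A_72_P588456 of IGFBP7 and A_72_P537638 of IGF2. The Cy5 over Cy3 ratio was above 0 on 4 of 4 arrays for 4 of 12 probes (background 11.0%). These include A_72_P537638, whose Cy3 channel on array 3 was not well above background. No dye term passed the adjusted threshold, where 0% of all tested probes did.

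On array 2, 12 of 12 IGF probes had a lower ratio in treated explants, with a median of -0.51, where 45.5% of all tested probes were lower. The array 2 median was 0.06 over all tested probes but -0.13 over the tested genes with a name. For 9 of 12 probes array 2 gave the lowest ratio of the 4 arrays (background 24.3%). The family medians on arrays 1, 3 and 4 were 0.32, -0.16 and 0.01. This look at single arrays was chosen after the values were seen. Without array 2, 9 of 12 probes had a higher ratio, where 47.1% of all tested probes did, and the family median was 0.12. If the header is right, array 2 is the only array of its slide, and slide, scan and sample cannot be told apart there.

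**Figure D3:**
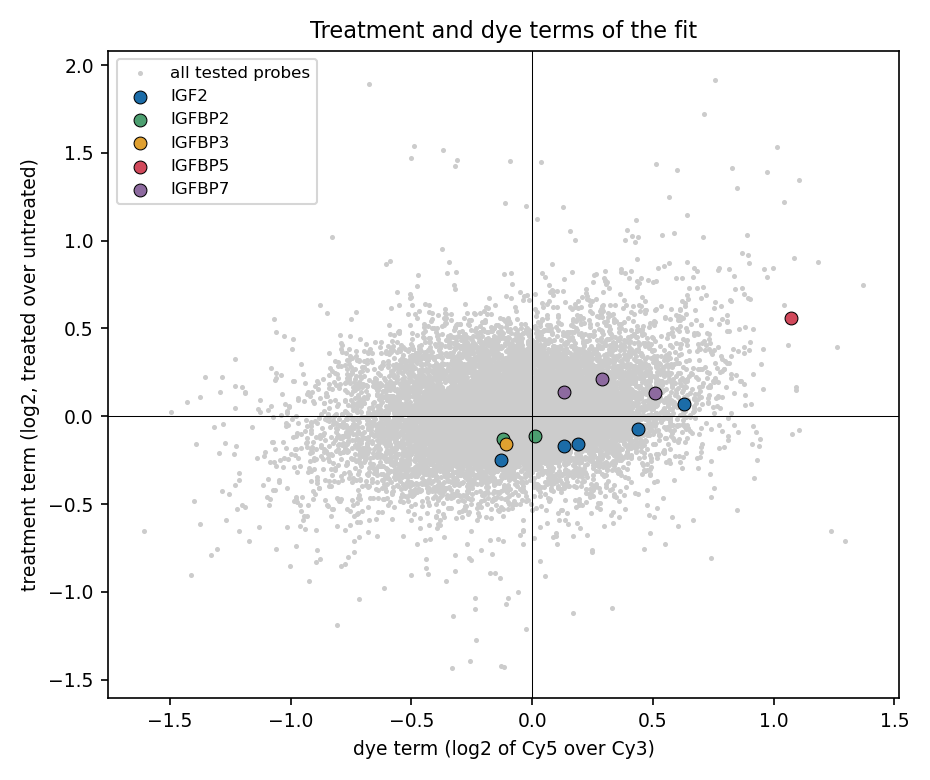
Treatment term (vertical axis, log2 of treated over untreated) against dye term (horizontal axis, log2 of Cy5 over Cy3) for the tested probes in grey (2 of the 13783 had no fit) and the 12 IGF probes in colour. IGFBP5 stands apart from the rest of the family at a dye term of 1.07 and a treatment term of 0.56, and the other probes lie between -0.25 and 0.21 on the treatment axis.

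Stromal and contractile cells are known sources of IGFBP5 and IGFBP7, so their markers are given beside them. Of 9 stromal markers, 4 were tested and 4 had a higher ratio (43.9% of tested named genes did), at a median log2 ratio of 0.22 (by array, 0.69, 0.23, 0.85 and -0.44). Their summed signal was 18329 to 45367 in treated RNA and 16530 to 43851 in untreated RNA. By probe, LUM ran from -0.12 to 0.24 over 6 probes, DCN from 0.10 to 0.23 over 4 and POSTN from 0.59 to 1.25 over 6. Of 7 smooth muscle and pericyte markers, 4 were tested, with 1 higher and 3 lower, at a median of -0.14 (by array, 0.54, -0.69, 0.03 and -0.39). Their summed signal was 16790 to 28356 in treated RNA and 17177 to 29614 in untreated RNA. Of 8 endothelial markers, 5 were tested, with 1 higher and 4 lower, and medians by array of 0.32, -0.22, -0.38 and -0.24. Their summed signal was 22868 to 34704 in treated RNA and 22256 to 38683 in untreated RNA. Every marker of these lists with a probe was tested except THY1 of the stroma, which was above background in 3 Cy5 channels and 1 Cy3 channel. Among other cells, ratios were below 0 for 4 of 5 tested epithelial markers (median -0.26) and 4 of 5 macrophage and myeloid ones (-0.42). They were also below 0 for 3 of 3 tested T and NK cell markers (-0.27) and 2 of 3 trophoblast ones (-0.15). By comparison, 919 of the 1637 tested named genes were below 0. On the array but not tested were 5 T and NK cell markers (CD3D, CD3E, CD8A, CD4 and CD2). The same held for 4 trophoblast markers (CDX2, PAG6, IFNG and CYP17A1). An unadjusted limma p under 0.05 was found for CLDN3 at -0.54 (1 of 5 tested epithelial markers) and POSTN at 0.59 (1 of 4 stromal markers). It was also found for CD86 at -0.68 (1 of 5 myeloid markers) and TFAP2C at 1.14 (1 of 3 trophoblast markers). The second TFAP2C probe stood at 0.55. No other tested marker had such a p, where 5.74% of tested named genes did. These genes were named after their values were seen, and each had an adjusted p = 0.999. The part of cell makeup in the ratios of IGFBP5 and IGFBP7 was not tested.

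Genes around the family, in 4 lists, gave 0 calls by limma at an adjusted p of 0.05 among 36 tested genes, where 0% of the 1637 tested genes with a name were called. At an unadjusted p of 0.05 the count was 1 of 36, against 5.74% of tested named genes. Among other ligands, receptors and binding proteins, 5 of 11 had a probe and 1 was tested. That gene was IGFBP6, a binding protein that prefers IGF2, at 0.47 ± 0.19 (moderated SE, n = 4; 95% interval 0.02 to 0.93; limma unadjusted p = 0.0434, adjusted p = 0.999). Its log2 ratio was 1.40, -0.12, 0.69 and -0.08 on arrays 1 to 4, the same order by dye as in IGFBP5, with a dye term of 0.58. The second IGFBP6 probe stood at 0.25. IGFBP4 and IGFALS, the acid-labile subunit, were above background in up to 3 Cy5 channels and in 0 Cy3 channels.

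Proteases that cut binding proteins, their inhibitors and matrix partners had 14 of 33 genes tested, 9 higher and 5 lower, with a median log2 ratio of 0.14, where the median of the 1637 tested named genes was -0.02 and 43.9% of them were higher. Median centring moved the list medians to 0.53 for these genes, 0.31 for the signalling genes and 0.19 for the regulators given below, together with the median of all tested probes (0.28). The genes with the smallest p were the urokinase PLAU at 0.39 ± 0.17, the collagenase MMP1 at 0.55 ± 0.25 and the membrane-bound metalloproteinase MMP14 at 0.31 ± 0.18. MMP1 had ratios of -0.28, 0.64, -0.11 and 1.97 and a dye term of -0.75, opposite in dye to PLAU (0.77) and MMP14 (0.80). STC1, an inhibitor of the pappalysin proteases, stood at -0.21, chosen after its value was seen.

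The receptor's signalling genes had 11 of 52 tested, 5 higher and 6 lower, with a median of -0.01. The smallest p-values were those of MDM2, a ubiquitin ligase that also acts on IGF1R, at -0.31 ± 0.17, of GRB10, an adaptor that dampens the receptor, at -0.26 ± 0.18, and of RACK1, a scaffold at the receptor, at 0.23 ± 0.17. MDM2 was lower on 4 of 4 arrays (-0.42, -0.09, -0.42 and -0.31), and RACK1 was higher on 4 of 4 (0.47, 0.14, 0.19 and 0.14), though its 6 probes ran from -0.09 to 0.38. Both genes were picked by p from these same ratios, and 7.30% of all tested probes had the same sign on 4 of 4 arrays. GRB10 had a second probe at -0.04. IRS1, a docking protein of IGF1R and the insulin receptor, was above background in up to 4 Cy5 channels and in 0 Cy3 channels.

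Genes that regulate IGF expression had 10 of 23 tested, 5 higher and 5 lower, with a median of -0.01. The smallest p-values were those of WT1, a repressor of IGF2 and IGF1R, at 0.41 ± 0.18, of the glucocorticoid receptor NR3C1 at -0.30 ± 0.17, whose second probe stood at 0.12, and of the progesterone receptor PGR at 0.32 ± 0.21. WT1 had ratios of 1.14, -0.46, 0.91 and 0.06 beside a dye term of 0.61. GHR, the growth hormone receptor, was above background in up to 3 Cy5 channels and in 0 Cy3 channels. The adjusted p was 0.999 for each gene named from these 4 lists.

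**Figure D4:**
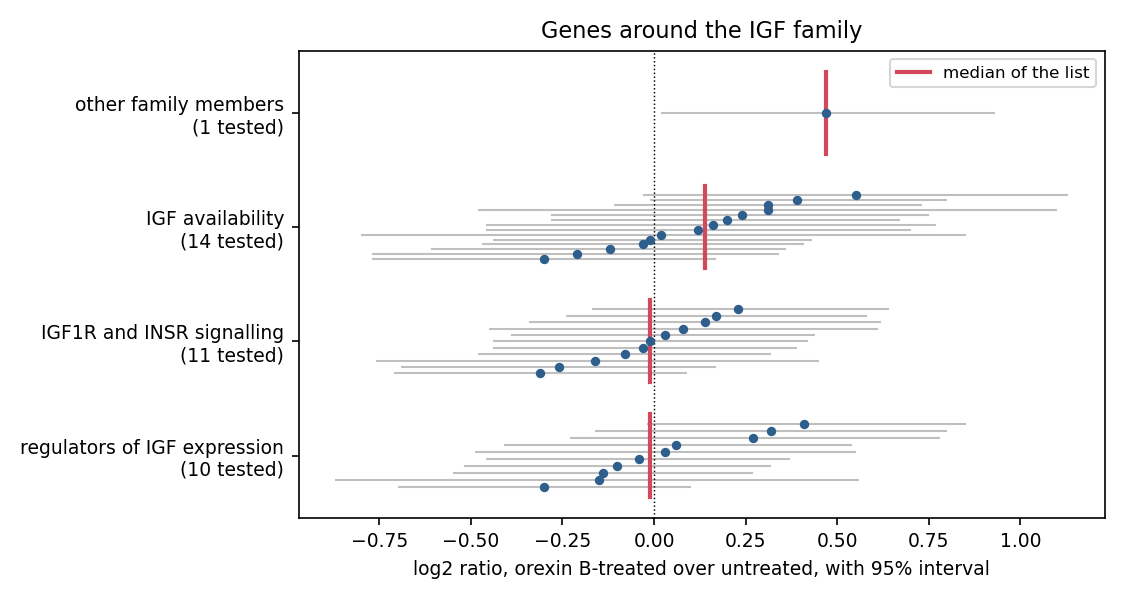
Fitted log2 ratio of treated over untreated with its 95% interval (horizontal axis) for the tested genes of 4 lists around the IGF family, with the list's median in red. The medians of the 3 lists with more than 1 gene are 0.14, -0.01 and -0.01, and IGFBP6 is the only gene whose interval does not include 0.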

How the data were processed

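Per the file headers, the deposited spot and background intensities of each channel, and the log10 ratio of Cy5 over Cy3, were written by version 10.7.3.1 of Agilent's Feature Extraction software for design 026440. The authors' deposited value table holds log2 ratios that correlate with the scanner's Cy5 over Cy3 at 0.946, -0.956, 0.797 and -0.738 on arrays 1 to 4 over all probes, so it reads as treated over untreated on the dye labels. Its medians were 0.183, 0.291, 0.012 and 0.031, and its centring is not given in the sources used here. The other flags per spot, as deposited, mark detection, saturation and outliers.

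Median intensities went through limma's normexp background correction (offset 50), and each array through loess (limma 3.58.1, R 4.3.3). Control and outlier spots had weight 0, outlier spots were left out, and spots of a probe were averaged. Signals by condition were then scaled by Aquantile. A probe had to be well above background on all 4 arrays in 1 condition, which left 13783 of 43603. For each probe, lmFit and eBayes fitted a treatment term and a dye term, with 2 residual and 5.09 prior degrees of freedom, and 95% intervals and two-sided p-values adjusted by Benjamini-Hochberg over all tested probes. The fit was tested on simulated data. The SE is the moderated one, and the number of arrays limits the precision. Levels of different probes were not compared.

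RefSeq accessions, without versions, named 6700 probes of 3029 genes through the Sscrofa11.1 gene table, and no coordinates are given because the headers name no build. List genes are shown by their brightest tested probe. Every IGF probe is named, and from each list around the family the genes with an unadjusted p under 0.05 or, where fewer than 3 have it, the 3 smallest. The members and lists were chosen with earlier results of these data known. No spot was flagged as saturated, although A_72_P588456 of IGFBP7 had an intensity of 65164.5 in Cy5 on array 1.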

Additional observations from a re-analysis of the deposited data

Results flagged for a closer look

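Over 47 groups of 4 values (ratios and signals of the IGF probes), 1 held a value far from the other 3 by Dixon's test at 95%, where chance alone marks about 1 group in 20. The log2 ratio of treated over untreated of IGFBP2 (A_72_P634395) was 0.21 on array 4, whereas the other 3 arrays stood between -0.26 and -0.23. Without array 4 its fitted ratio was -0.24.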

How the results depend on the processing

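No IGF probe and no gene of the 4 lists passed an adjusted p of 0.05 under any of the alternatives run. Over all tested probes, leaving out an array gave 0 to 17 calls, the 17 being without array 2. Median centring moved the median of all tested probes from 0.02 to 0.28, so that 12 of 12 IGF probes were above 0 and their median of 0.20 stood below that of all probes. Against the reported signs, median centring put IGF2 at 0.13 (A_72_P303139), 0.06 (A_72_P537644), 0 (A_72_P544532) and 0.01 (A_72_P599193), IGFBP2 at 0.19 (A_72_P178161) and 0.21 (A_72_P634395), and IGFBP3 at 0.09. With all arrays read as treated in Cy5 and no dye term, IGF2 stood at 0.19 (A_72_P303139), 0.46 (A_72_P537644) and 0.13 (A_72_P544532). IGFBP2 stood at 0.01 (A_72_P178161) under that reading. Scaling between arrays put A_72_P537638 of IGF2 at -0.03. Leaving out each array in turn turned the sign of 6 probes, with ranges of -0.15 to 0.29 (A_72_P537638), -0.24 to 0.10 (A_72_P537644) and -0.40 to 0.07 (A_72_P544532) for IGF2, -0.34 to 0.13 for IGFBP2 (A_72_P178161), -0.38 to 0.06 for IGFBP3 and -0.01 to 0.27 for IGFBP7 (A_72_P588456). IGFBP5 stayed above 0 under every alternative run, at 0.17 to 0.95 without an array and 0.41 to 1.07 otherwise. The median of the regulators of IGF expression was -0.14 with all arrays read as treated in Cy5, and that of the proteases and their partners was 0.07 to 0.19 without an array. Without an array the other probes of IGFBP7 ran from 0.08 to 0.33 (A_72_P422899) and 0.04 to 0.23 (A_72_P680993). The cause of these shifts was not tested. Each ratio already pairs treated and untreated RNA within an array, so no further replicate block was fitted. The probe of IGF1 was well above background in 1 Cy3 channel and the receptor probes in 0. For IGF2R, A_72_P490952 and A_72_P704524 were also not above background in Cy5 on array 2.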
